A study of Mus musculus with 8 samples.

Results

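The genes described are chemokines, interleukins and their receptors in stromal cells of neonatal mouse bone marrow. They were chosen by symbol: CC and CXC chemokines with a number, *Cx3cl1*, the numbered receptors of both chemokine classes, numbered interleukins, interleukin receptor subunits, and *Lif*, *Lifr* and *Osmr*, with *Cxcl12* left out. Of 15880 genes with values, 54 matched, 23 of them ligands or the antagonist *Il1rn* and 31 receptor subunits. The annotation used lists 127 such symbols, and the 73 without a row were not analysed here. Cells came from *Nes-Gfp* transgenic pups at postnatal day 1, in which GFP is driven by regulatory elements of nestin, so GFP reports the transgene and not the endogenous gene. After removal of CD45+, CD31+ and Ter119+ cells by the sort, GFP and surface Pdgfrα gave 4 populations: GFP+ Pdgfrα+, GFP- Pdgfrα+, GFP+ Pdgfrα- and GFP- Pdgfrα- cells. Every population has 2 libraries, each made by amplification of RNA from 15000 to 80000 cells of a pool of 3 pups.

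Chemokines are small secreted proteins that guide leukocytes and progenitors through G protein-coupled receptors, and interleukins act on receptors built from a ligand-binding chain and a shared signalling chain such as gp130, the common γ chain or the interleukin-1 receptor accessory protein. In bone marrow, stromal cells make several of these factors, among them interleukin-7 for lymphoid progenitors, and stromal and osteoblast lineage cells respond to gp130 cytokines through the leukemia inhibitory factor and oncostatin M receptors. Many of the ligands are made in quantity only after injury or infection, and antagonists and decoy receptors limit their action.

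All levels below are deposited values, that is, a gene's reads plus 0.5 per 1e6 of the effective library size. The libraries held 3221217 to 5302762 reads, and 3 reads, taken as the floor, correspond to a value between 0.825 and 1.04. This floor, like every interval from reads, covers counting error only and not the spread between pools. Differences are log2 differences of value plus 1 from limma, the first population minus the second, with p adjusted over all 15880 genes and a call at 0.05. A fitted difference from a population at 3 reads or fewer depends on the added 1 and is no bound. With 2 libraries against 2, an exact permutation test of a single gene cannot go below p = 0.333. *Pdgfra* was 733 and 754 in GFP+ Pdgfrα+, 839 and 794 in GFP- Pdgfrα+, 18.1 and 10.4 in GFP+ Pdgfrα- and 3.30 and 4.36 in GFP- Pdgfrα- cells. *Nes* was 57.6 and 72.0 in GFP+ Pdgfrα+, 27.4 and 47.1 in GFP- Pdgfrα+, 149 and 176 in GFP+ Pdgfrα- and 3.59 and 9.08 in GFP- Pdgfrα- cells. Thus *Pdgfra* followed the Pdgfrα sort in every library, and *Nes* was higher in the GFP+ than in the GFP- population on either side of it, with no overlap between the libraries.

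Most members were low. Of the 54, 31 stayed under a value of 10 in every library, 14 were over 3 reads in all 8 libraries, and 44 passed the filter that the study states. The moderated F test called 36 members as differing among the 4 populations, where 66.0% of all genes were called, so the share among members (36 of 54) is near the background. For GFP+ Pdgfrα+ against GFP- Pdgfrα+ cells, 2 members were higher in the former (3.22% of all genes were called in this direction) and 1 was lower (2.13%). For GFP+ Pdgfrα+ against GFP+ Pdgfrα- cells, 11 were higher (13.1%) and 3 lower (11.1%). In GFP+ Pdgfrα- against GFP- Pdgfrα- cells, 21 were higher (30.1%) and 5 lower (23.6%), or 38.9% and 9.26% of the members. In GFP- Pdgfrα+ against GFP- Pdgfrα- cells, 24 were higher (32.9%) and 8 lower (26.8%), or 44.4% and 14.8%. These last 2 comparisons share the GFP- Pdgfrα- libraries, and every comparison shares a population with another.

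Median differences of the members were -0.05, 0.36, 0.54 and 0.86 in the same order, beside 0.0047, -0.025, 0.15 and 0.17 for all genes. With differences from a population at 0 reads set at their lower bound, the last median was 0.83 and the others did not move. The split of calls against GFP- Pdgfrα- cells depended on scaling. Median centring turned 21 higher and 5 lower into 17 and 9 for GFP+ Pdgfrα- cells. For GFP- Pdgfrα+ cells it turned 24 and 8 into 18 and 12. Over all genes, 4787 higher and 3740 lower became 3550 and 5569 for GFP+ Pdgfrα- cells. For GFP- Pdgfrα+ cells, 5226 and 4250 became 3913 and 5720. The bulk libraries cannot tell fewer expressing cells from less RNA per cell.

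**Figure D1:**
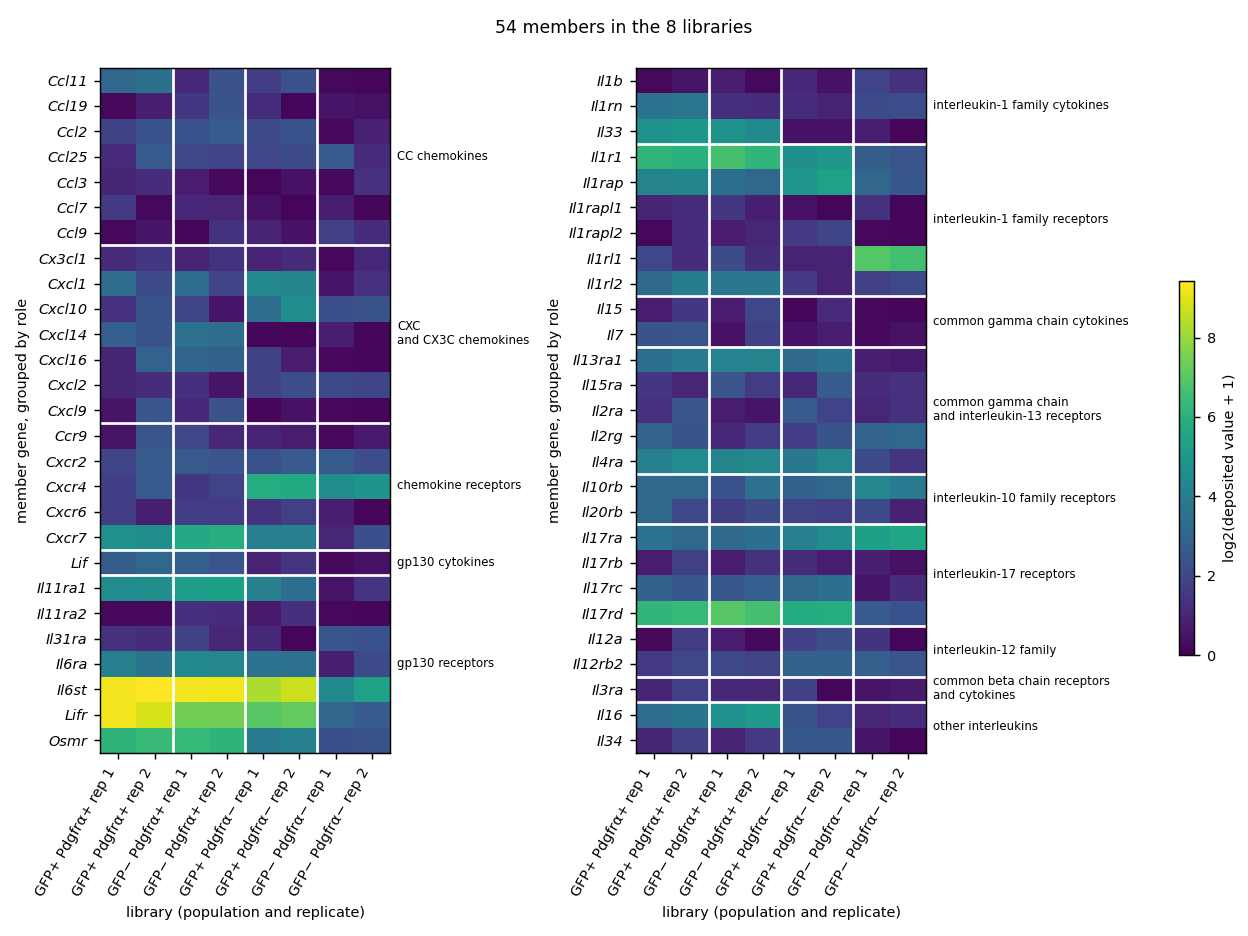
Heat map of log2 of the deposited value plus 1 for the 54 members, grouped by role (rows), in the 8 libraries of the 4 populations (columns). The brightest rows are *Il6st* and *Lifr*, and *Il1rl1* is bright only in the GFP- Pdgfrα- libraries, at 122 and 93.5.

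By population, 16 members had their highest mean in GFP+ Pdgfrα+, 19 in GFP- Pdgfrα+, 11 in GFP+ Pdgfrα- and 8 in GFP- Pdgfrα- cells. The lowest mean fell in GFP- Pdgfrα- cells for 31 members. The libraries of this population also differed in composition: *mt-Rnr2* took 27.2% and 29.1% of their reads, 17.6% and 15.6% in GFP+ Pdgfrα- cells and 9.52% to 10.8% in the Pdgfrα+ libraries. Their normalization factors were 0.858 and 0.800, against 1.02 to 1.13 elsewhere, and the part of this in the low means was not tested. Over 3 reads in both libraries were 35, 36, 32 and 23 members, in the same order of populations. Summed over the 54, the values were 1708 and 1695 in GFP+ Pdgfrα+, 1421 and 1355 in GFP- Pdgfrα+, 807 and 969.6 in GFP+ Pdgfrα- and 327 and 313 in GFP- Pdgfrα- cells. *Il6st* and *Lifr* alone made up 71.6% and 68.2% of this sum in GFP+ Pdgfrα+ and 8.43% and 15.0% in GFP- Pdgfrα- cells.

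Per kb of annotated exon, the scale on which genes can be compared, *Il6st* led in 3 populations, with a mean and SD of 125 ± 10.01 in GFP+ Pdgfrα+, 116 ± 2.32 in GFP- Pdgfrα+ and 68.9 ± 13.4 in GFP+ Pdgfrα- cells. In GFP+ Pdgfrα+ cells *Lifr* came next (52.0 ± 9.597 per kb), clear of *Osmr* (15.5 ± 1.92) and *Il1r1* (13.1 ± 1.28), which did not differ beyond their spread. In GFP- Pdgfrα+ cells the levels per kb of *Il1r1* (17.4 ± 4.02), *Cxcr7* (16.6 ± 1.74), *Lifr* (16.4 ± 0.173) and *Osmr* (15.3 ± 1.38) lay within each other's spread. Behind *Il6st* in GFP+ Pdgfrα- cells stood *Cxcr4* (29.96 ± 1.41 per kb), *Cxcl1* (20.3 ± 1.02), *Lifr* (12.95 ± 1.21) and *Cxcl10* (10.6 ± 6.24). The spread of *Cxcl10* covered *Lifr* and also lower members such as *Il17rd* (6.08 ± 0.0752), so its place is not fixed. The order was another one in GFP- Pdgfrα- cells: *Il1rl1* (15.6 ± 2.89 per kb) and *Cxcr4* (14.6 ± 1.42), not separable by their spread, then *Il17ra* (11.0 ± 1.28) and *Il6st* (5.91 ± 2.94).

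**Figure D2:**
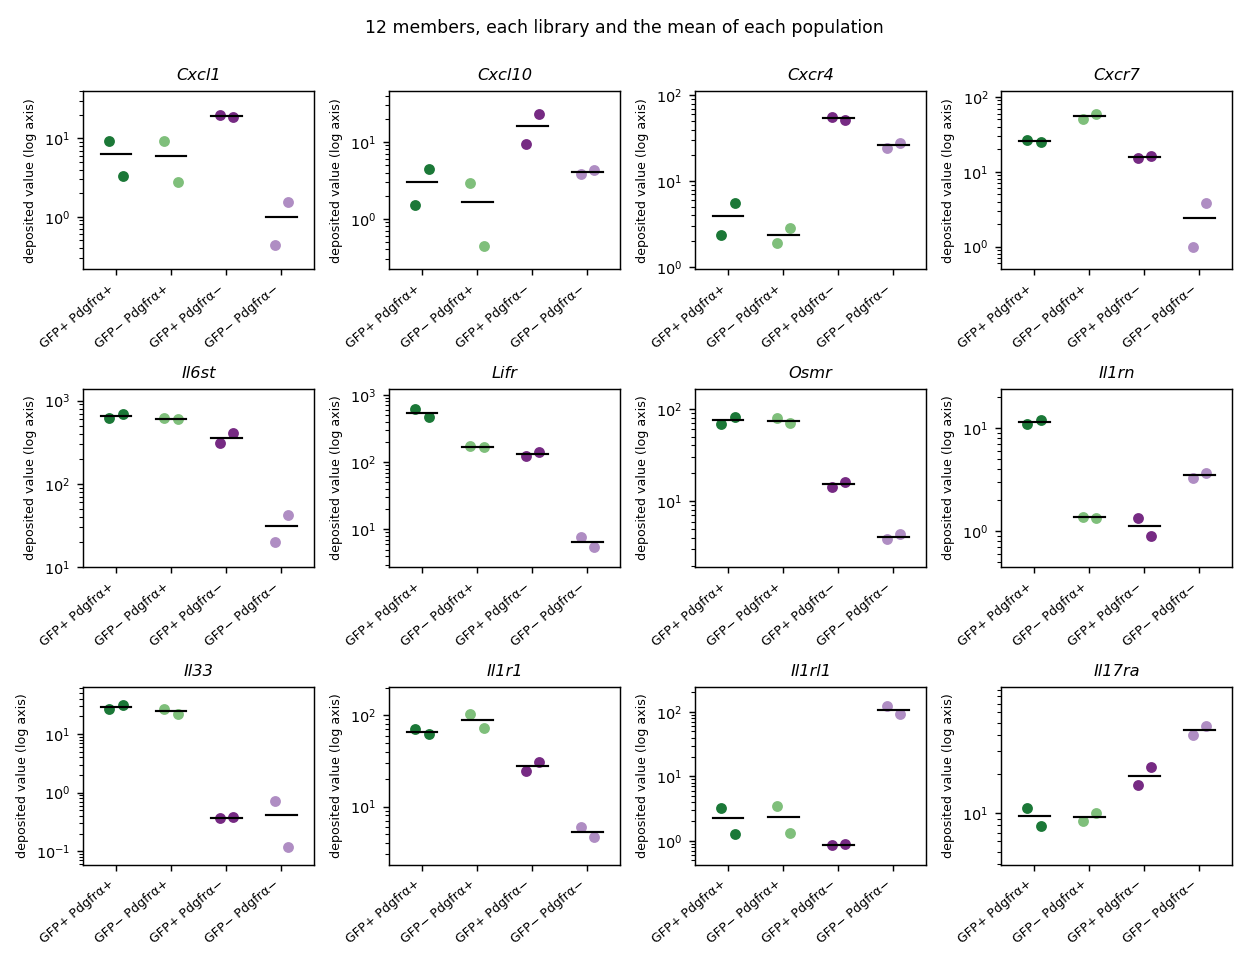
Deposited values of 12 members on log axes, 1 panel per gene, with 1 point per library and a line at the mean of each of the 4 populations. *Cxcr4* and *Cxcl1* are highest in GFP+ Pdgfrα- cells, *Lifr* and *Il1rn* in GFP+ Pdgfrα+ cells, and *Il33* is at 2 reads or fewer in all 4 Pdgfrα- libraries.

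The sort removed CD45+, CD31+ and Ter119+ cells, and marker lists of other cells were read in the same libraries. Erythroid markers (8 of 8 with a row, *Hbb-b1* the most abundant) summed to 46.1 and 47.4 in GFP+ Pdgfrα+, 56.0 and 39.8 in GFP- Pdgfrα+, 167 and 84.6 in GFP+ Pdgfrα- and 13792 and 21871 in GFP- Pdgfrα- cells. The myeloid list (9 of 10, *Lyz2*) summed to 8.98 and 21.4 in GFP+ Pdgfrα+, 26.3 and 16.2 in GFP- Pdgfrα+, 26.8 and 28.4 in GFP+ Pdgfrα- and 86.3 and 95.2 in GFP- Pdgfrα- cells. Granulocyte genes (6 of 7, *Ngp*) came to 3.31 and 10.1 in GFP+ Pdgfrα+, 10.8 and 6.24 in GFP- Pdgfrα+, 15.3 and 18.0 in GFP+ Pdgfrα- and 62.3 and 53.5 in GFP- Pdgfrα- cells. All 3 sums were highest in both GFP- Pdgfrα- libraries. Of the mast cell list only *Kit*, which other blood progenitors also express, had a row, and it was 3.18 and 4.17 in GFP+ Pdgfrα+, 2.14 and 3.71 in GFP- Pdgfrα+, 13.2 and 9.13 in GFP+ Pdgfrα- and 347 and 266 in GFP- Pdgfrα- cells. *Cpa3*, *Fcer1a*, *Mcpt4* and *Tpsb2* had none, nor had 6 of 7 lymphoid genes. *Ptprc*, which encodes CD45, was 11.3 and 6.72 in GFP- Pdgfrα- cells and at most 1.58 elsewhere. Endothelial genes (8 of 8, *Vwf*) summed to 60.2 and 94.0 in GFP+ Pdgfrα+, 66.8 and 67.4 in GFP- Pdgfrα+, 66.5 and 111 in GFP+ Pdgfrα- and 60.03 and 172 in GFP- Pdgfrα- cells.

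Markers of mesenchymal and neural lineages divided the other populations. Osteoblast genes (7 of 7, *Col1a1*) summed to 60773 and 44660.1 in GFP+ Pdgfrα+, 17319 and 15674 in GFP- Pdgfrα+, 3828 and 3170.2 in GFP+ Pdgfrα- and 549 and 672 in GFP- Pdgfrα- cells. *Col1a1* made up most of each sum, and other genes ordered GFP- Pdgfrα+ and GFP+ Pdgfrα- cells differently. Their means were 49.9 and 143 for *Ibsp*, 231 and 443 for *Spp1* and 1.47 and 4.24 for *Bglap*. *Alpl* (30.1 and 31.9) and *Sp7* (15.1 and 14.1) were close, and *Runx2* (71.3 and 30.1) followed the sum. Tendon and fibroblast genes (7 of 7, *Dcn*), which include *Pdgfra* and so depend partly on the sort itself, summed to 2793 and 2828 in GFP+ Pdgfrα+, 3402 and 2961 in GFP- Pdgfrα+, 92.6 and 63.4 in GFP+ Pdgfrα- and 53.6 and 60.02 in GFP- Pdgfrα- cells. Within this list *Tnmd*, *Mkx*, *Scx* and *Ly6a* separated the Pdgfrα+ populations. Their means were 24.9, 9.72, 0.705 and 32.9 with GFP and 383, 40.5, 9.39 and 125 without it. *Scx* had only 2 reads in each GFP+ Pdgfrα+ library. *Lum* went the other way (516 and 329), and *Dcn* (1482 and 1477) and *Pdgfra* (744 and 816) differed less. Chondrocyte genes (5 of 5, *Col2a1*) were 288 and 368 in GFP+ Pdgfrα+, 589 and 1886 in GFP- Pdgfrα+, 66.6 and 93.0 in GFP+ Pdgfrα- and 473 and 871 in GFP- Pdgfrα- cells. In GFP+ Pdgfrα- cells the pericyte and smooth muscle list (8 of 8, *Rgs5*) reached 2246 and 2909, the muscle list (7 of 7, *Pax7*) 805 and 833 and the Schwann lineage list (7 of 7, *Ngfr*) 444 and 406. The next highest libraries on these 3 lists stood at 532, 67.8 and 196, all in GFP+ Pdgfrα+ cells. Single genes did not all follow these sums: *Ngfr* was 94.6 and 109 in GFP+ Pdgfrα+ cells and 33.6 and 23.3 in GFP+ Pdgfrα- cells, and *S100b* and *Cspg4* also had higher means in Pdgfrα+ populations. For each member below that is highest in the population where such a list is highest, the part of those cells in the result was not tested.

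CC chemokines were low, with no mean above 9.18 and 3 of 7 called by the F test (66.0% of all genes). *Ccl11*, the eosinophil attractant eotaxin, had means of 9.18 in GFP+ Pdgfrα+, 2.57 in GFP- Pdgfrα+, 3.28 in GFP+ Pdgfrα- and 0.131 in GFP- Pdgfrα- cells, with 0 reads in both GFP- Pdgfrα- libraries. GFP+ Pdgfrα+ cells gave 1.63 (adjusted p = 0.07) against GFP- Pdgfrα+ and 1.28 (adjusted p = 0.0684) against GFP+ Pdgfrα- cells. With the replicate number as a block *Ccl11* was called in both (adjusted p = 0.0488 and 0.0493). It was at least 3.58-fold higher in GFP+ Pdgfrα- cells than in the GFP- Pdgfrα- population (adjusted p = 0.00472) and at least 2.81-fold higher in GFP- Pdgfrα+ cells than in the GFP- Pdgfrα- population (adjusted p = 0.0136), both against 3 reads per library. With 1 library left out these ratios ran from 2.52-fold to 4.64-fold and from 1.24-fold (without GFP- Pdgfrα+ replicate 2) to 4.38-fold (without GFP- Pdgfrα+ replicate 1). The former call was lost without GFP+ Pdgfrα- replicate 2 (1.55, adjusted p = 0.055). Adjusted p ranged from 0.00113 to 0.055 over 17 alternatives. The latter was lost without GFP- Pdgfrα+ replicate 2 (0.92, adjusted p = 0.148), GFP- Pdgfrα- replicate 1 (1.55, adjusted p = 0.0501) and GFP- Pdgfrα- replicate 2 (1.52, adjusted p = 0.0542), and with median centring. Its 17 alternatives gave an adjusted p of 0.00245 to 0.148. *Ccl2*, which draws monocytes through Ccr2, averaged 3.40 in GFP+ Pdgfrα+, 4.83 in GFP- Pdgfrα+, 3.88 in GFP+ Pdgfrα- and 0.484 in GFP- Pdgfrα- cells. It was called against GFP- Pdgfrα- cells in GFP+ Pdgfrα- cells (1.75 (SE 0.41, adjusted p = 0.00328)) and in GFP- Pdgfrα+ cells (2.00 (SE 0.41, adjusted p = 0.00113)). *Ccl19*, a ligand of Ccr7, averaged 0.428 in GFP+ Pdgfrα+, 3.099 in GFP- Pdgfrα+, 0.732 in GFP+ Pdgfrα- and 0.392 in GFP- Pdgfrα- cells. Its difference for GFP- Pdgfrα+ against GFP- Pdgfrα- cells (1.49 (SE 0.46, adjusted p = 0.0142)) lost its call without GFP- Pdgfrα+ replicate 2 (1.05, adjusted p = 0.121), GFP- Pdgfrα- replicate 1 (1.53, adjusted p = 0.0512) and GFP- Pdgfrα- replicate 2 (1.45, adjusted p = 0.063), and with edgeR, median centring and quantile normalization. Among 16 alternatives adjusted p went from 0.0121 to 0.126. *Ccl2*, *Ccl7* and *Ccl11* lie side by side on the plus strand of chromosome 11 (81849073, 81859214 and 81871325 are their first bases in NCBIM37), yet *Ccl7* had at most 7 reads in any library.

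Among CXC chemokines, *Cxcl1*, a neutrophil attractant that acts through Cxcr2, was 9.25 and 3.31 in GFP+ Pdgfrα+, 9.20 and 2.82 in GFP- Pdgfrα+, 20.03 and 18.7 in GFP+ Pdgfrα- and 0.431 and 1.53 in GFP- Pdgfrα- cells. Both GFP+ Pdgfrα- libraries exceeded all others, the Pdgfrα+ populations overlapped, and both GFP- Pdgfrα- libraries were lowest. The difference was 3.42 (SE 0.55, adjusted p = 0.000207) for GFP+ Pdgfrα- against GFP- Pdgfrα- cells, and -1.61 (SE 0.55, adjusted p = 0.051) for GFP+ Pdgfrα+ against GFP+ Pdgfrα- cells, which was not called. That value passed 0.05 with the replicate number as a block (adjusted p = 0.0414), with voom, the stated filter, either rescaling and a fit of the compared populations alone. It also passed without GFP+ Pdgfrα+ replicate 1 (-2.24, adjusted p = 0.0319), GFP- Pdgfrα+ replicate 1 (-1.61, adjusted p = 0.0442), GFP- Pdgfrα+ replicate 2 (-1.61, adjusted p = 0.0416), GFP- Pdgfrα- replicate 1 (-1.61, adjusted p = 0.0429) or GFP- Pdgfrα- replicate 2 (-1.61, adjusted p = 0.0448). The adjusted p of 17 alternatives was 0.022 to 0.314. For GFP- Pdgfrα+ against GFP- Pdgfrα- cells it was 1.71 (SE 0.55, adjusted p = 0.0171), a call lost without GFP- Pdgfrα+ replicate 1 (1.01, adjusted p = 0.195) and GFP- Pdgfrα- replicate 1 (1.30, adjusted p = 0.111), and with median centring and quantile normalization. With 17 alternatives the adjusted p was 0.00719 to 0.195. *Cxcl2*, its neighbour and close relative, averaged only 1.13 in GFP+ Pdgfrα+, 0.916 in GFP- Pdgfrα+, 3.14 in GFP+ Pdgfrα- and 3.13 in GFP- Pdgfrα- cells. It was lower in GFP- Pdgfrα+ cells than in the GFP- Pdgfrα- population by -1.15 (SE 0.40, adjusted p = 0.0267), a call lost without GFP- Pdgfrα+ replicate 2 (-0.79, adjusted p = 0.187), GFP- Pdgfrα- replicate 1 (-1.09, adjusted p = 0.107) and GFP- Pdgfrα- replicate 2 (-1.21, adjusted p = 0.0759), and with edgeR. Over 17 alternatives, adjusted p lay between 0.00181 and 0.187.

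*Cxcl10*, an interferon-inducible chemokine for Cxcr3 on lymphocytes, was 1.52 and 4.46 in GFP+ Pdgfrα+, 2.90 and 0.446 in GFP- Pdgfrα+, 9.35 and 22.8 in GFP+ Pdgfrα- and 3.88 and 4.36 in GFP- Pdgfrα- cells. It too was highest in both GFP+ Pdgfrα- libraries, although these differed from each other by more than any other pair did on the plain scale. The differences were -2.08 (SE 0.57, adjusted p = 0.0204) for GFP+ Pdgfrα+ against GFP+ Pdgfrα- cells and 1.62 (SE 0.57, adjusted p = 0.0318) for GFP+ Pdgfrα- against GFP- Pdgfrα- cells. The first was lost without GFP+ Pdgfrα+ replicate 1 (-1.52, adjusted p = 0.146) and GFP+ Pdgfrα- replicate 2 (-1.48, adjusted p = 0.195), and with a pseudocount of 0.1 and a fit with no trend. Adjusted p ranged from 0.0157 to 0.195 over 17 alternatives. The second was lost without GFP+ Pdgfrα- replicate 2 (1.02, adjusted p = 0.271), GFP- Pdgfrα- replicate 1 (1.55, adjusted p = 0.105) and GFP- Pdgfrα- replicate 2 (1.68, adjusted p = 0.0803), and with a pseudocount of 0.1, median centring, quantile normalization and a fit with no trend. Its 17 alternatives gave an adjusted p of 0.0238 to 0.271. Its exons overlap *Art3* on the other strand, and the libraries keep no strand. Of the members, 10 have exons that overlap another gene of the table, among them *Ccl19*, *Cxcl16*, *Il16*, *Il1b* and *Il1rap* on the other strand and *Il10rb* and *Il11ra1* on the same strand, so their reads are less certain.

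*Cxcl14*, a chemokine of epithelia and fibroblasts, averaged 5.34 in GFP+ Pdgfrα+, 9.91 in GFP- Pdgfrα+, 0.125 in GFP+ Pdgfrα- and 0.418 in GFP- Pdgfrα- cells, with 0 reads in both GFP+ Pdgfrα- libraries. It was at least 6.10-fold higher in GFP+ Pdgfrα+ cells than in the GFP+ Pdgfrα- population (adjusted p = 0.000741), and for GFP- Pdgfrα+ against GFP- Pdgfrα- cells, the latter with 2 and 0 reads, the difference was 2.97 (SE 0.39, adjusted p = 3.55e-05). *Cxcl16*, a transmembrane chemokine and the ligand of Cxcr6, averaged 3.86 in GFP+ Pdgfrα+, 7.06 in GFP- Pdgfrα+, 1.60 in GFP+ Pdgfrα- and 0.131 in GFP- Pdgfrα- cells, with 0 reads in both GFP- Pdgfrα- libraries. It was at least 7.71-fold higher in GFP- Pdgfrα+ cells than in the GFP- Pdgfrα- population (adjusted p = 0.00128). In GFP+ Pdgfrα+ cells its libraries stood apart, at 0.967 and 6.76. Thus *Cxcl14* and *Cxcl16* had their highest means in Pdgfrα+ populations, and *Cxcl1* and *Cxcl10* in GFP+ Pdgfrα- cells, where the pericyte, muscle and Schwann sums were.

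The promoters of *Cxcl1*, of its neighbour *Cxcl2* and of *Cxcl10* were set side by side. Of the members, 44 matched by symbol in RefSeq promoters of build GRCm38.p6, and the 250 bases before each start were searched on both strands for the NF-κB consensus of 10 letters. It was present in 3.90% of all 32851 windows and in 7 of 56 windows of members, among them all 3 shown. The other 4 belonged to *Ccl9*, *Il16*, *Il1r1* and *Il2ra*, and *Cxcl9*, the neighbour of *Cxcl10*, had 0 matches. Capitals mark the matches, 2 in each window, overlapping in *Cxcl1* and *Cxcl2*. A match describes letters and shows neither binding nor use. The windows are chr5:90890995-90891244 (plus strand), chr5:90903649-90903898 (plus strand) and chr5:92348890-92349139 (minus strand), written 5′ to 3′.
Cxcl1: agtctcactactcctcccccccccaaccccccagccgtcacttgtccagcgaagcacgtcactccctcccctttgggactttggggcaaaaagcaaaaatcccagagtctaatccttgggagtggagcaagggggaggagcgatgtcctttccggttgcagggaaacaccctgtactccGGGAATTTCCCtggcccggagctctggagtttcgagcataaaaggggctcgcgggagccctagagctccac
Cxcl2: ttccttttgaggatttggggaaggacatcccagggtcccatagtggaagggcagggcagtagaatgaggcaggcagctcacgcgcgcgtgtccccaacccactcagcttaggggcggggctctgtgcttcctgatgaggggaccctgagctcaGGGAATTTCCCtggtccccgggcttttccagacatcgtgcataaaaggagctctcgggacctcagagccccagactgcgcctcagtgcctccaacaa
Cxcl10: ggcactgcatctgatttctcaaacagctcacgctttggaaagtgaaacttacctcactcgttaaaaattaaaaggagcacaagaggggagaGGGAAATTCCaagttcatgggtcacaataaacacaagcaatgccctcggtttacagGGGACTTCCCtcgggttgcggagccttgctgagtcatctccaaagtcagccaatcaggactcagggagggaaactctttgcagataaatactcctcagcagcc

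Chemokine receptors were represented by 5 genes, of which the F test called 2 (66.0% of all genes). *Cxcr4*, the signalling receptor for *Cxcl12*, was 2.35 and 5.61 in GFP+ Pdgfrα+, 1.89 and 2.82 in GFP- Pdgfrα+, 56.0 and 52.4 in GFP+ Pdgfrα- and 24.6 and 28.2 in GFP- Pdgfrα- cells. All 4 Pdgfrα- libraries lay above all 4 Pdgfrα+ libraries, and the GFP+ Pdgfrα- pair was highest. The difference was -3.55 (SE 0.35, adjusted p = 2.24e-05) for GFP+ Pdgfrα+ against GFP+ Pdgfrα- cells and -3.04 (SE 0.35, adjusted p = 1.19e-05) for GFP- Pdgfrα+ against GFP- Pdgfrα- cells. That for GFP+ Pdgfrα- against GFP- Pdgfrα- cells was 1.01 (SE 0.35, adjusted p = 0.0296), lost without GFP+ Pdgfrα- replicate 1 (0.97, adjusted p = 0.139), GFP+ Pdgfrα- replicate 2 (1.06, adjusted p = 0.108), GFP- Pdgfrα- replicate 1 (0.92, adjusted p = 0.124) and GFP- Pdgfrα- replicate 2 (1.11, adjusted p = 0.0688), and with a pseudocount of 0.1 and median centring. Among 17 alternatives adjusted p went from 0.00172 to 0.206. *Cxcr7*, an atypical receptor that takes up *Cxcl12* and so limits it, was 26.7 and 24.9 in GFP+ Pdgfrα+, 51.3 and 59.5 in GFP- Pdgfrα+, 15.2 and 16.3 in GFP+ Pdgfrα- and 1.01 and 3.89 in GFP- Pdgfrα- cells. Both GFP- Pdgfrα+ libraries were highest, GFP+ Pdgfrα+ cells next, then GFP+ Pdgfrα- cells, and GFP- Pdgfrα- cells lowest, with no overlap between any 2 populations. The difference was 4.17 (SE 0.36, adjusted p = 8.82e-07) for GFP- Pdgfrα+ against GFP- Pdgfrα- cells and 2.42 (SE 0.36, adjusted p = 0.000123) for GFP+ Pdgfrα- against GFP- Pdgfrα- cells. That for GFP+ Pdgfrα+ against GFP- Pdgfrα+ cells, -1.07 (SE 0.36, adjusted p = 0.123), was called only with voom, edgeR, a fit of the compared populations alone, or without GFP- Pdgfrα- replicate 1 (-1.07, adjusted p = 0.0128) or GFP- Pdgfrα- replicate 2 (-1.07, adjusted p = 0.0177). The adjusted p of 17 alternatives was 0.0111 to 0.437. *Cxcr2*, the receptor for *Cxcl1* and *Cxcl2*, stayed between 2.90 and 5.61 in all 8 libraries and was called in no comparison.

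The gp130 group held the most abundant members, and all 7 of its receptor chains were called by the F test, which called 66.0% of all genes. *Il6st* encodes gp130 itself, the signalling chain for interleukin-6, interleukin-11, leukemia inhibitory factor and oncostatin M. It was 615 and 688 in GFP+ Pdgfrα+, 615 and 598 in GFP- Pdgfrα+, 309 and 408 in GFP+ Pdgfrα- and 19.96 and 41.6 in GFP- Pdgfrα- cells. GFP- Pdgfrα- cells were lowest by a wide gap, GFP+ Pdgfrα- cells lay between, and the 2 Pdgfrα+ populations lay close together. The difference was 4.35 (SE 0.26, adjusted p = 2.69e-08) for GFP- Pdgfrα+ against GFP- Pdgfrα- cells and 3.58 (SE 0.26, adjusted p = 2.25e-07) for GFP+ Pdgfrα- against GFP- Pdgfrα- cells. Between the Pdgfrα+ populations it was 0.10 (SE 0.26, adjusted p = 0.884). GFP+ Pdgfrα+ cells exceeded GFP+ Pdgfrα- cells by 0.87 (SE 0.26, adjusted p = 0.0272). That last call was lost without GFP+ Pdgfrα+ replicate 1 (0.95, adjusted p = 0.0794), GFP+ Pdgfrα+ replicate 2 (0.79, adjusted p = 0.145), GFP- Pdgfrα+ replicate 1 (0.87, adjusted p = 0.0546), GFP- Pdgfrα+ replicate 2 (0.87, adjusted p = 0.0545), GFP+ Pdgfrα- replicate 1 (0.67, adjusted p = 0.236) and GFP+ Pdgfrα- replicate 2 (1.07, adjusted p = 0.063), and with a fit with no trend. With 17 alternatives the adjusted p was 0.000545 to 0.236.

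*Lifr*, the ligand-specific partner of gp130 for leukemia inhibitory factor, separated the Pdgfrα+ populations. It was 607 and 467 in GFP+ Pdgfrα+, 171 and 169 in GFP- Pdgfrα+, 125 and 143 in GFP+ Pdgfrα- and 7.61 and 5.54 in GFP- Pdgfrα- cells. Both GFP+ Pdgfrα+ libraries were far above the rest, GFP- Pdgfrα+ and GFP+ Pdgfrα- cells formed a middle tier without overlap, and GFP- Pdgfrα- cells were lowest. Its mean was 3.16-fold higher in GFP+ Pdgfrα+ cells than in the GFP- Pdgfrα+ population, a log2 difference of 1.64 (SE 0.18, adjusted p = 0.000275), and 4.02-fold higher than in GFP+ Pdgfrα- cells (1.99 (SE 0.18, adjusted p = 9.5e-06)). The differences from GFP- Pdgfrα- cells were 4.16 (SE 0.18, adjusted p = 3.44e-09) for GFP+ Pdgfrα- and 4.51 (SE 0.18, adjusted p = 1.02e-09) for GFP- Pdgfrα+ cells. Like *Il1rn* and *Il16*, *Lifr* was called in all 4 comparisons, and *Lifr* kept its calls in each under every alternative tested. The share of all genes called in all 4 is not given, so these 3 members are not set against a background. Osteoblast genes were also highest in GFP+ Pdgfrα+ cells.

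*Osmr*, the corresponding partner chain for oncostatin M, was 68.4 and 81.5 in GFP+ Pdgfrα+, 78.8 and 69.3 in GFP- Pdgfrα+, 14.2 and 16.1 in GFP+ Pdgfrα- and 3.88 and 4.36 in GFP- Pdgfrα- cells. It did not share the step of *Lifr* between the Pdgfrα+ populations, whose libraries overlapped, with a difference of 0.01 (SE 0.21, adjusted p = 0.988). GFP+ Pdgfrα+ cells exceeded GFP+ Pdgfrα- cells by 2.23 (SE 0.21, adjusted p = 1.69e-05), and the 2 comparisons with GFP- Pdgfrα- cells gave 1.66 (SE 0.21, adjusted p = 3.79e-05) for GFP+ Pdgfrα- and 3.87 (SE 0.21, adjusted p = 1.62e-08) for GFP- Pdgfrα+ cells. *Osmr* (minus strand, 6763577 to 6824313) and *Lifr* (plus strand, 7079559 to 7147489) lie near each other on chromosome 15. *Il11ra1*, the chain specific for interleukin-11, was 22.5 and 24.6 in GFP+ Pdgfrα+, 37.2 and 38.8 in GFP- Pdgfrα+, 16.4 and 9.65 in GFP+ Pdgfrα- and 0.431 and 1.77 in GFP- Pdgfrα- cells. The GFP- Pdgfrα+ pair was highest, and the GFP- Pdgfrα- pair, at 1 and 7 reads, was lowest. Differences from GFP- Pdgfrα- cells were 2.77 (SE 0.37, adjusted p = 4.51e-05) in GFP+ Pdgfrα- and 4.29 (SE 0.37, adjusted p = 7.57e-07) in GFP- Pdgfrα+ cells. Reads of this gene are uncertain because it has a close copy, *Il11ra2*, and overlaps *Galt* on the same strand.

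*Il6ra*, the chain that binds interleukin-6, was 16.4 and 11.4 in GFP+ Pdgfrα+, 20.3 and 19.5 in GFP- Pdgfrα+, 11.0 and 10.7 in GFP+ Pdgfrα- and 0.718 and 3.18 in GFP- Pdgfrα- cells. Again the GFP- Pdgfrα- libraries were lowest, with a difference of 2.15 (SE 0.41, adjusted p = 0.000837) for GFP+ Pdgfrα- and 2.96 (SE 0.41, adjusted p = 5.47e-05) for GFP- Pdgfrα+ cells. *Il31ra*, which pairs with *Osmr* to bind interleukin-31, was highest in GFP- Pdgfrα- cells, with means of 1.41 in GFP+ Pdgfrα+, 1.84 in GFP- Pdgfrα+, 0.611 in GFP+ Pdgfrα- and 4.43 in GFP- Pdgfrα- cells. Its difference of -1.82 (SE 0.44, adjusted p = 0.00396) for GFP+ Pdgfrα- against GFP- Pdgfrα- cells was lost without GFP+ Pdgfrα- replicate 2 (-1.37, adjusted p = 0.0531). Over 17 alternatives, adjusted p lay between 0.000679 and 0.0531. *Lif*, the ligand of *Lifr*, averaged 6.78 in GFP+ Pdgfrα+, 5.39 in GFP- Pdgfrα+, 1.26 in GFP+ Pdgfrα- and 0.249 in GFP- Pdgfrα- cells. Ligand and receptor were thus both highest in GFP+ Pdgfrα+ cells, although *Lif* differed little from GFP- Pdgfrα+ cells (0.29 (SE 0.40, adjusted p = 0.768)). *Lif* was called for GFP- Pdgfrα+ against GFP- Pdgfrα- cells (2.35 (SE 0.40, adjusted p = 0.000249)) and for GFP+ Pdgfrα+ against GFP+ Pdgfrα- cells (1.80 (SE 0.40, adjusted p = 0.00588)), the latter lost without GFP+ Pdgfrα- replicate 1 (1.53, adjusted p = 0.0642). Adjusted p ranged from 0.00443 to 0.0642 over 17 alternatives. No row exists for *Il6*, *Il11* or *Il27*.

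In the interleukin-1 family, the F test called 3 of 3 ligands and antagonists and 5 of 6 receptors, beside 66.0% of all genes. *Il1rn* encodes the receptor antagonist, which occupies the interleukin-1 receptor without signalling. It was 10.9 and 11.9 in GFP+ Pdgfrα+, 1.39 and 1.34 in GFP- Pdgfrα+, 1.34 and 0.900 in GFP+ Pdgfrα- and 3.30 and 3.66 in GFP- Pdgfrα- cells. Both GFP+ Pdgfrα+ libraries were above 10, every other library was below 4, and the GFP- Pdgfrα- pair exceeded the remaining 4 libraries. The mean was 8.39-fold higher in GFP+ Pdgfrα+ cells than in the GFP- Pdgfrα+ population, a log2 difference of 2.39 (SE 0.37, adjusted p = 0.00296), and 10.2-fold higher than in GFP+ Pdgfrα- cells (2.56 (SE 0.37, adjusted p = 0.000375)). Against GFP- Pdgfrα- cells it was -1.09 (SE 0.37, adjusted p = 0.0263) in GFP+ Pdgfrα- cells, lost without GFP+ Pdgfrα- replicate 2 (-0.94, adjusted p = 0.121), GFP- Pdgfrα- replicate 1 (-1.14, adjusted p = 0.0775) and GFP- Pdgfrα- replicate 2 (-1.03, adjusted p = 0.109). Its 17 alternatives gave an adjusted p of 0.00162 to 0.121. In GFP- Pdgfrα+ cells it was -0.92 (SE 0.37, adjusted p = 0.0483), and the adjusted p was 0.06 with the replicate number as a block. This call was also lost without GFP- Pdgfrα+ replicate 1 (-0.94, adjusted p = 0.114), GFP- Pdgfrα+ replicate 2 (-0.91, adjusted p = 0.127), GFP+ Pdgfrα- replicate 1 (-0.92, adjusted p = 0.0552), GFP+ Pdgfrα- replicate 2 (-0.92, adjusted p = 0.055), GFP- Pdgfrα- replicate 1 (-0.98, adjusted p = 0.116) and GFP- Pdgfrα- replicate 2 (-0.87, adjusted p = 0.162), and with voom, edgeR and a pseudocount of 0.1. Among 17 alternatives adjusted p went from 0.00278 to 0.162.

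*Il33*, an alarmin held in the nucleus and released from damaged cells, was 27.2 and 31.8 in GFP+ Pdgfrα+, 27.1 and 21.8 in GFP- Pdgfrα+, 0.364 and 0.386 in GFP+ Pdgfrα- and 0.718 and 0.118 in GFP- Pdgfrα- cells. It followed Pdgfrα alone: the 4 Pdgfrα+ libraries held 73 to 110 reads and the 4 Pdgfrα- libraries 0 to 2. The difference was 4.47 (SE 0.38, adjusted p = 6.1e-06) for GFP+ Pdgfrα+ against GFP+ Pdgfrα- cells and 4.19 (SE 0.38, adjusted p = 1.16e-06) for GFP- Pdgfrα+ against GFP- Pdgfrα- cells. Between the Pdgfrα+ populations it was 0.26 (SE 0.38, adjusted p = 0.774). *Il1rl1*, which encodes its receptor ST2, was 3.18 and 1.29 in GFP+ Pdgfrα+, 3.40 and 1.34 in GFP- Pdgfrα+, 0.850 and 0.900 in GFP+ Pdgfrα- and 122 and 93.5 in GFP- Pdgfrα- cells. It was high in GFP- Pdgfrα- cells only, at 423 and 396 reads, where *Kit*, erythroid, myeloid and granulocyte sums were also highest. The difference was -5.84 (SE 0.43, adjusted p = 3.23e-07) for GFP+ Pdgfrα- against GFP- Pdgfrα- cells and -5.07 (SE 0.43, adjusted p = 7.67e-07) for GFP- Pdgfrα+ against GFP- Pdgfrα- cells. Ligand and receptor were thus highest in different sorted populations, and both were at 3 reads or fewer in GFP+ Pdgfrα- cells.

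*Il1r1*, the signalling receptor for interleukin-1, was 70.8 and 61.7 in GFP+ Pdgfrα+, 102 and 73.5 in GFP- Pdgfrα+, 24.6 and 31.0 in GFP+ Pdgfrα- and 5.89 and 4.60 in GFP- Pdgfrα- cells. The GFP- Pdgfrα+ pair was highest, the GFP+ Pdgfrα+ pair just below without overlap, GFP+ Pdgfrα- cells intermediate and GFP- Pdgfrα- cells lowest. GFP+ Pdgfrα+ cells exceeded GFP+ Pdgfrα- cells by 1.23 (SE 0.23, adjusted p = 0.00225), and the differences from GFP- Pdgfrα- cells were 2.21 (SE 0.23, adjusted p = 6.3e-06) in GFP+ Pdgfrα- and 3.82 (SE 0.23, adjusted p = 3.5e-08) in GFP- Pdgfrα+ cells. *Il1rap*, the accessory chain that *Il1r1* and *Il1rl1* share, was 17.5 and 19.1 in GFP+ Pdgfrα+, 9.71 and 7.87 in GFP- Pdgfrα+, 29.0 and 40.8 in GFP+ Pdgfrα- and 7.61 and 4.83 in GFP- Pdgfrα- cells. It was highest in GFP+ Pdgfrα- cells, next in GFP+ Pdgfrα+ cells, and lowest in the GFP- populations, which were close to each other. One comparison was called, GFP+ Pdgfrα- against GFP- Pdgfrα- cells at 2.32 (SE 0.30, adjusted p = 4.07e-05), while GFP+ Pdgfrα+ against GFP- Pdgfrα+ cells gave 0.99 (SE 0.30, adjusted p = 0.0896). GFP+ Pdgfrα+ against GFP+ Pdgfrα- cells gave -0.87 (SE 0.30, adjusted p = 0.056), which passed 0.05 with voom, edgeR, quantile normalization and a fit of the compared populations alone, or without GFP- Pdgfrα- replicate 1 (-0.87, adjusted p = 0.0399) or GFP- Pdgfrα- replicate 2 (-0.87, adjusted p = 0.0361). The adjusted p of 17 alternatives was 0.0225 to 0.315. *Il1rl2*, the receptor for interleukin-36, was 8.70 and 14.8 in GFP+ Pdgfrα+, 11.98 and 12.3 in GFP- Pdgfrα+, 2.06 and 0.900 in GFP+ Pdgfrα- and 2.44 and 3.18 in GFP- Pdgfrα- cells. It separated Pdgfrα+ from Pdgfrα- libraries, with 2.36 (SE 0.41, adjusted p = 0.00122) between the GFP+ populations and 1.79 (SE 0.41, adjusted p = 0.00218) between the GFP- populations.

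*Il1r1*, *Il1rl2* and *Il1rl1* follow each other on the plus strand of chromosome 1, at 40281925 to 40373043, 40381472 to 40422316 and 40486415 to 40522260 in NCBIM37. Although they are neighbours, the first and second were highest in Pdgfrα+ populations and the third in GFP- Pdgfrα- cells. *Il1b*, a principal activating ligand, had at most 9 reads in any library, and no row exists for *Il1a* or *Il18*.

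Receptors of the common γ chain and interleukin-13 group had 4 of 5 genes called by the F test (66.0% of all genes). *Il4ra*, the chain that binds interleukin-4 in both of its receptor complexes, was 16.4 and 22.6 in GFP+ Pdgfrα+, 18.8 and 20.9 in GFP- Pdgfrα+, 12.7 and 19.4 in GFP+ Pdgfrα- and 3.59 and 1.77 in GFP- Pdgfrα- cells. *Il13ra1*, a chain that pairs with *Il4ra*, was 9.53 and 13.4 in GFP+ Pdgfrα+, 17.02 and 17.4 in GFP- Pdgfrα+, 8.38 and 11.2 in GFP+ Pdgfrα- and 0.718 and 0.590 in GFP- Pdgfrα- cells. For both genes the GFP- Pdgfrα- pair was lowest, and for *Il4ra* the other 3 populations overlapped. The difference of *Il4ra* was 2.23 (SE 0.35, adjusted p = 0.000162) in GFP+ Pdgfrα- and 2.55 (SE 0.35, adjusted p = 4.39e-05) in GFP- Pdgfrα+ cells against GFP- Pdgfrα- cells. For *Il13ra1*, at 2 reads in each GFP- Pdgfrα- library, the corresponding values were 2.69 (SE 0.35, adjusted p = 3.55e-05) and 3.46 (SE 0.35, adjusted p = 3.11e-06). *Il2rg*, the common γ chain itself and a gene of blood cells, averaged 5.61 in GFP+ Pdgfrα+, 1.68 in GFP- Pdgfrα+, 3.40 in GFP+ Pdgfrα- and 7.47 in GFP- Pdgfrα- cells. It was lower in GFP- Pdgfrα+ cells than in the GFP- Pdgfrα- population by -1.69 (SE 0.42, adjusted p = 0.00425). *Il7*, needed by lymphoid progenitors, averaged 4.51 in GFP+ Pdgfrα+, 1.45 in GFP- Pdgfrα+, 0.504 in GFP+ Pdgfrα- and 0.249 in GFP- Pdgfrα- cells. It had 15 and 16 reads in GFP+ Pdgfrα+ cells and at most 8 in any other library, with a difference of 1.88 (SE 0.45, adjusted p = 0.0102) from GFP+ Pdgfrα- cells that was lost without GFP+ Pdgfrα- replicate 1 (1.74, adjusted p = 0.0844). With 17 alternatives the adjusted p was 0.00465 to 0.0844.

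Receptors of the interleukin-17 family had 3 of 4 genes called by the F test (66.0% of all genes). *Il17rd*, an orphan member known as Sef that restrains fibroblast growth factor signalling, was 71.9 and 78.3 in GFP+ Pdgfrα+, 125 and 99.3 in GFP- Pdgfrα+, 55.2 and 56.2 in GFP+ Pdgfrα- and 5.60 and 4.13 in GFP- Pdgfrα- cells. The GFP- Pdgfrα+ pair was highest and the GFP- Pdgfrα- pair lowest by a wide gap, with differences from GFP- Pdgfrα- cells of 3.29 (SE 0.20, adjusted p = 5.7e-08) in GFP+ Pdgfrα- and 4.27 (SE 0.20, adjusted p = 3.68e-09) in GFP- Pdgfrα+ cells. *Il17ra*, the common chain for interleukin-17A, was 10.9 and 7.91 in GFP+ Pdgfrα+, 8.70 and 9.95 in GFP- Pdgfrα+, 16.4 and 22.5 in GFP+ Pdgfrα- and 40.1 and 47.3 in GFP- Pdgfrα- cells. It was lowest in the Pdgfrα+ populations, which overlapped, higher in GFP+ Pdgfrα- cells and highest in GFP- Pdgfrα- cells. The difference was -1.14 (SE 0.27, adjusted p = 0.00383) for GFP+ Pdgfrα- and -2.11 (SE 0.27, adjusted p = 2.98e-05) for GFP- Pdgfrα+ cells against GFP- Pdgfrα- cells. For GFP+ Pdgfrα+ against GFP+ Pdgfrα- cells it was -0.97 (SE 0.27, adjusted p = 0.0226), lost without GFP+ Pdgfrα+ replicate 2 (-0.76, adjusted p = 0.127) and GFP+ Pdgfrα- replicate 2 (-0.76, adjusted p = 0.169), and with a fit of the compared populations alone. Over 17 alternatives, adjusted p lay between 0.0146 and 0.169. *Il17rc*, which pairs with *Il17ra*, averaged 5.76 in GFP+ Pdgfrα+, 5.502 in GFP- Pdgfrα+, 8.90 in GFP+ Pdgfrα- and 0.864 in GFP- Pdgfrα- cells. GFP- Pdgfrα- cells thus had the highest mean of *Il17ra* and the lowest of *Il17rc*. Its differences from GFP- Pdgfrα- cells were 2.44 (SE 0.40, adjusted p = 0.000229) in GFP+ Pdgfrα- and 1.84 (SE 0.40, adjusted p = 0.00159) in GFP- Pdgfrα+ cells.

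*Il10rb*, the shared second chain for interleukin-10 and interleukin-22, was 8.42 and 7.91 in GFP+ Pdgfrα+, 4.16 and 10.8 in GFP- Pdgfrα+, 6.68 and 8.10 in GFP+ Pdgfrα- and 19.7 and 14.0 in GFP- Pdgfrα- cells. It was highest in both GFP- Pdgfrα- libraries, but the F test did not call it (adjusted p = 0.0674), and its exons overlap *Ifnar2* on the same strand. The difference of -1.08 (SE 0.40, adjusted p = 0.0396) for GFP+ Pdgfrα- against GFP- Pdgfrα- cells was lost without GFP+ Pdgfrα+ replicate 1 (-1.08, adjusted p = 0.0509), GFP+ Pdgfrα+ replicate 2 (-1.08, adjusted p = 0.0504), GFP+ Pdgfrα- replicate 1 (-0.95, adjusted p = 0.171), GFP+ Pdgfrα- replicate 2 (-1.20, adjusted p = 0.0944), GFP- Pdgfrα- replicate 1 (-0.85, adjusted p = 0.2) and GFP- Pdgfrα- replicate 2 (-1.31, adjusted p = 0.0517), and with a pseudocount of 0.1 and a fit with no trend. Adjusted p ranged from 0.00572 to 0.2 over 17 alternatives. For GFP- Pdgfrα+ against GFP- Pdgfrα- cells it was -1.17 (SE 0.40, adjusted p = 0.0241), lost without GFP- Pdgfrα+ replicate 1 (-0.57, adjusted p = 0.246) and GFP- Pdgfrα- replicate 1 (-0.94, adjusted p = 0.142), and with a fit of the compared populations alone. Its 17 alternatives gave an adjusted p of 0.0035 to 0.246. Without GFP- Pdgfrα+ replicate 2 it was -1.77. None of the interleukin-10 family ligands listed had a row.

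*Il16*, a ligand of CD4 cleaved from a larger precursor, was 9.25 and 11.6 in GFP+ Pdgfrα+, 25.8 and 32.5 in GFP- Pdgfrα+, 4.49 and 2.70 in GFP+ Pdgfrα- and 1.01 and 1.30 in GFP- Pdgfrα- cells. The 4 populations did not overlap, with GFP- Pdgfrα+ cells highest. It was the 1 member called lower in GFP+ Pdgfrα+ cells than in the GFP- Pdgfrα+ population, at -1.40 (SE 0.36, adjusted p = 0.0471), and the adjusted p was 0.0532 with the replicate number as a block. The call was also lost without GFP+ Pdgfrα+ replicate 1 (-1.25, adjusted p = 0.186), GFP+ Pdgfrα+ replicate 2 (-1.55, adjusted p = 0.0989), GFP- Pdgfrα+ replicate 1 (-1.56, adjusted p = 0.156), GFP- Pdgfrα+ replicate 2 (-1.24, adjusted p = 0.278), GFP+ Pdgfrα- replicate 1 (-1.40, adjusted p = 0.0653) and GFP+ Pdgfrα- replicate 2 (-1.40, adjusted p = 0.0617), and with a pseudocount of 0.1. Among 17 alternatives adjusted p went from 0.00948 to 0.278. GFP+ Pdgfrα+ cells exceeded GFP+ Pdgfrα- cells by 1.34 (SE 0.36, adjusted p = 0.0188), lost without GFP+ Pdgfrα+ replicate 2 (1.19, adjusted p = 0.0993) and GFP+ Pdgfrα- replicate 2 (1.05, adjusted p = 0.131). The adjusted p of 17 alternatives was 0.0131 to 0.131. Against GFP- Pdgfrα- cells the difference was 3.80 (SE 0.36, adjusted p = 1.98e-06) in GFP- Pdgfrα+ cells. In GFP+ Pdgfrα- cells it was 1.07 (SE 0.36, adjusted p = 0.0256), lost without GFP+ Pdgfrα- replicate 1 (0.79, adjusted p = 0.166) and GFP- Pdgfrα- replicate 1 (0.97, adjusted p = 0.092), and with voom, median centring and quantile normalization. With 17 alternatives the adjusted p was 0.0125 to 0.414. *Il34*, the second ligand of the macrophage receptor Csf1r, averaged 1.71 in GFP+ Pdgfrα+, 1.41 in GFP- Pdgfrα+, 4.997 in GFP+ Pdgfrα- and 0.274 in GFP- Pdgfrα- cells. GFP+ Pdgfrα- cells exceeded GFP- Pdgfrα- cells, which held 1 and 0 reads, with 2.25 (SE 0.42, adjusted p = 0.000694).

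The other 21 members had highest population means between 1.11 and 6.497 and are summarized by number. They were 4 CC chemokines, *Cx3cl1* and *Cxcl9*, the chemokine receptors *Ccr9*, *Cxcr2* and *Cxcr6*, and 12 interleukins or receptor chains. Of the 21, 5 were called in at least 1 pairwise comparison, and 16 in none. The share of all genes called in at least 1 comparison is not given, so these counts are not set against a background.

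Whether GFP+ and GFP- cells differed in the same way on the 2 sides of the Pdgfrα sort was tested as an interaction, and 22 of 54 members were called (44.3% of all genes), 4 positive (19.1%) and 18 negative (25.2%). With median centring, and also with quantile normalization, 6 were positive and 16 negative. The median interaction was -0.50 for members and -0.16 for all genes. Among the negative values were those of *Il17rd* (-3.85 (SE 0.28, adjusted p = 6.61e-07)), *Il6st* (-3.47 (SE 0.36, adjusted p = 1.07e-05)) and *Cxcr7* (-3.49 (SE 0.51, adjusted p = 0.000169)). These genes had their lowest mean in GFP- Pdgfrα- cells. Among the positive ones, *Il1rl1* (5.79 (SE 0.61, adjusted p = 1.27e-05)) was high in GFP- Pdgfrα- cells only, and *Il1rn* (3.48 (SE 0.52, adjusted p = 0.0002)) was higher in GFP+ cells within the Pdgfrα+ and lower within the Pdgfrα- populations. *Lifr* kept 1 direction, 1.64 within Pdgfrα+ and 4.16 within Pdgfrα- cells, and the interaction was -2.52 (SE 0.25, adjusted p = 8.12e-06).

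Cytokines, chemokines and receptors with other symbols were counted in the same way. Of 25 such genes, limma called 1 higher and 1 lower, 10 higher and 0 lower, 9 higher and 3 lower and 14 higher and 3 lower, in the order GFP+ Pdgfrα+ against GFP- Pdgfrα+, GFP+ Pdgfrα+ against GFP+ Pdgfrα-, GFP+ Pdgfrα- against GFP- Pdgfrα- and GFP- Pdgfrα+ against GFP- Pdgfrα- cells. Of all genes, 3.22% and 2.13%, 13.1% and 11.1%, 30.1% and 23.6%, and 32.9% and 26.8% were called in these directions. The most abundant by mean were *Lepr*, *Csf1*, *Cntfr* and *Kitl*. *Lepr*, the leptin receptor, was 201 and 158 in GFP+ Pdgfrα+, 101 and 102 in GFP- Pdgfrα+, 13.7 and 13.5 in GFP+ Pdgfrα- and 5.89 and 13.6 in GFP- Pdgfrα- cells. *Csf1*, the macrophage growth factor, was 113 and 82.9 in GFP+ Pdgfrα+, 137 and 108 in GFP- Pdgfrα+, 28.5 and 23.3 in GFP+ Pdgfrα- and 2.44 and 5.31 in GFP- Pdgfrα- cells. *Cntfr*, a further partner of gp130 and *Lifr*, was 33.8 and 41.0 in GFP+ Pdgfrα+, 66.9 and 91.6 in GFP- Pdgfrα+, 4.98 and 3.22 in GFP+ Pdgfrα- and 1.01 and 0.590 in GFP- Pdgfrα- cells. All 3 were highest in the Pdgfrα+ libraries, with differences for GFP- Pdgfrα+ against GFP- Pdgfrα- cells of 3.36 (SE 0.29, adjusted p = 7.88e-07), 4.72 (SE 0.28, adjusted p = 3.39e-08) and 5.47 (SE 0.32, adjusted p = 2.41e-08). For GFP+ Pdgfrα+ against GFP- Pdgfrα+ cells limma called none of the 3. The values were 0.80 (adjusted p = 0.148) for *Lepr*, -0.33 (adjusted p = 0.602) for *Csf1* and -1.05 (adjusted p = 0.0828) for *Cntfr*. *Lepr* and *Cntfr* were called there with voom, edgeR and a fit of the compared populations alone.

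*Kitl*, the stem cell factor gene, was 55.9 and 67.1 in GFP+ Pdgfrα+, 24.6 and 28.1 in GFP- Pdgfrα+, 7.16 and 11.7 in GFP+ Pdgfrα- and 4.16 and 4.13 in GFP- Pdgfrα- cells, highest in both GFP+ Pdgfrα+ libraries like *Lifr* and *Il1rn*. Its difference from GFP- Pdgfrα+ cells was 1.19 (SE 0.28, adjusted p = 0.0291), lost without GFP+ Pdgfrα+ replicate 1 (1.32, adjusted p = 0.0952), GFP+ Pdgfrα+ replicate 2 (1.06, adjusted p = 0.165), GFP- Pdgfrα+ replicate 1 (1.099, adjusted p = 0.199) and GFP- Pdgfrα+ replicate 2 (1.28, adjusted p = 0.135), and with a pseudocount of 0.1 and a fit with no trend. Over 17 alternatives, adjusted p lay between 0.00286 and 0.199. *Ccbp2*, a decoy receptor for CC chemokines, was the 1 related gene called lower in GFP+ Pdgfrα+ cells than in the GFP- Pdgfrα+ population and was chosen after its values were seen. It was 3.18 and 3.88 in GFP+ Pdgfrα+, 11.2 and 16.5 in GFP- Pdgfrα+, 0.364 and 0.643 in GFP+ Pdgfrα- and 0.144 and 0.354 in GFP- Pdgfrα- cells. The difference of -1.69 (SE 0.39, adjusted p = 0.0257) was lost without GFP+ Pdgfrα+ replicate 1 (-1.58, adjusted p = 0.11), GFP+ Pdgfrα+ replicate 2 (-1.81, adjusted p = 0.0669), GFP- Pdgfrα+ replicate 1 (-1.95, adjusted p = 0.0701) and GFP- Pdgfrα+ replicate 2 (-1.44, adjusted p = 0.173), and with edgeR, a pseudocount of 0.1 and a fit of the compared populations alone. Adjusted p ranged from 0.0195 to 0.173 over 17 alternatives.

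Downstream of these receptors, 10 JAK and STAT genes gave 1 higher and 0 lower, 3 higher and 0 lower, 1 higher and 5 lower and 2 higher and 3 lower in the same order of comparisons. The shares of all genes were 3.22% and 2.13%, 13.1% and 11.1%, 30.1% and 23.6%, and 32.9% and 26.8%. *Jak1*, which gp130 and the common γ chain receptors use, was 219 and 221 in GFP+ Pdgfrα+, 191 and 204 in GFP- Pdgfrα+, 114 and 116 in GFP+ Pdgfrα- and 241 and 213 in GFP- Pdgfrα- cells. *Stat3*, the main factor activated by gp130, was 165 and 161 in GFP+ Pdgfrα+, 208 and 163 in GFP- Pdgfrα+, 172 and 176 in GFP+ Pdgfrα- and 32.9 and 36.2 in GFP- Pdgfrα- cells. Like *Il6st*, *Stat3* was lowest in both GFP- Pdgfrα- libraries, with 2.30 (SE 0.15, adjusted p = 1.05e-07) and 2.38 (SE 0.15, adjusted p = 4.79e-08) in GFP+ Pdgfrα- and GFP- Pdgfrα+ cells, whereas *Jak1* was lowest in GFP+ Pdgfrα- cells. *Jak2* was 102 and 80.1 in GFP+ Pdgfrα+, 55.3 and 47.97 in GFP- Pdgfrα+, 44.1 and 40.5 in GFP+ Pdgfrα- and 165 and 131 in GFP- Pdgfrα- cells, highest in GFP- Pdgfrα- cells like the blood cell sums, whose part was not tested. It was the 1 gene of this list called between the Pdgfrα+ populations, at 0.80 (SE 0.18, adjusted p = 0.0229), lost without GFP+ Pdgfrα+ replicate 1 (0.63, adjusted p = 0.162), GFP- Pdgfrα+ replicate 1 (0.90, adjusted p = 0.0931), GFP- Pdgfrα+ replicate 2 (0.70, adjusted p = 0.188), GFP+ Pdgfrα- replicate 1 (0.80, adjusted p = 0.0507) and GFP+ Pdgfrα- replicate 2 (0.80, adjusted p = 0.0503), and with a fit with no trend. Its 17 alternatives gave an adjusted p of 0.00854 to 0.188. *Stat6*, the factor for interleukin-4 and interleukin-13, was 56.8 and 57.1 in GFP+ Pdgfrα+, 83.8 and 83.01 in GFP- Pdgfrα+, 17.8 and 28.9 in GFP+ Pdgfrα- and 41.2 and 29.4 in GFP- Pdgfrα- cells, highest in GFP- Pdgfrα+ cells.

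The 16 feedback inhibitors gave 1 higher and 0 lower, 2 higher and 0 lower, 5 higher and 3 lower and 6 higher and 4 lower, where all genes had 3.22% and 2.13%, 13.1% and 11.1%, 30.1% and 23.6%, and 32.9% and 26.8%. The most abundant, *Ptpn11*, *Pias1*, *Socs4* and *Pias2*, ranged from 35.9 to 116 over all libraries. Limma called *Ptpn11* and *Pias1* in no pairwise comparison. With median centring both were called lower in GFP+ Pdgfrα- cells than in the GFP- Pdgfrα- population (adjusted p = 0.0395 and 0.0177). These were the lowest of 17 alternatives, whose highest were 0.946 and 0.947. Median centring also called *Ptpn11* lower in GFP- Pdgfrα+ cells than in the GFP- Pdgfrα- population (-0.56, adjusted p = 0.00907). *Socs3*, induced by gp130 signalling and an inhibitor of it, was chosen after its values were seen. It was 86.3 and 80.6 in GFP+ Pdgfrα+, 36.2 and 26.0 in GFP- Pdgfrα+, 73.9 and 124 in GFP+ Pdgfrα- and 1.58 and 2.95 in GFP- Pdgfrα- cells. GFP- Pdgfrα- cells were lowest by a wide gap, with 4.92 (SE 0.29, adjusted p = 4.77e-08) in GFP+ Pdgfrα- and 3.31 (SE 0.29, adjusted p = 9.55e-07) in GFP- Pdgfrα+ cells. Within Pdgfrα+ cells it was higher in the GFP+ libraries by 1.41 (SE 0.29, adjusted p = 0.0146), lost without GFP+ Pdgfrα+ replicate 1 (1.37, adjusted p = 0.103), GFP+ Pdgfrα+ replicate 2 (1.46, adjusted p = 0.0784), GFP- Pdgfrα+ replicate 1 (1.65, adjusted p = 0.0568) and GFP- Pdgfrα+ replicate 2 (1.18, adjusted p = 0.162), and with a fit with no trend. Among 17 alternatives adjusted p went from 0.00343 to 0.162.

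Of 22 interleukin-1 receptor adaptors and NF-κB genes, limma gave 0 higher and 0 lower, 0 higher and 2 lower, 2 higher and 8 lower and 2 higher and 9 lower. Of all genes, these calls took 3.22% and 2.13%, 13.1% and 11.1%, 30.1% and 23.6%, and 32.9% and 26.8%. The adaptors and kinases *Tab2*, *Map3k7* and *Irak1* were the most abundant. Limma called none of them in a pairwise comparison, but with median centring all 3 were called lower in GFP+ Pdgfrα- cells than in the GFP- Pdgfrα- population (adjusted p = 0.000185, 0.00496 and 0.00566). Over 17 alternatives these results reached an adjusted p of 0.909, 0.895 and 0.814, and median centring gave the lowest of each. Against GFP- Pdgfrα- cells, *Tab2* was also called with voom in GFP+ Pdgfrα- cells, at -0.36 (adjusted p = 0.0222). With quantile normalization its call for GFP- Pdgfrα+ against GFP- Pdgfrα- cells had the opposite sign, at 0.38 (adjusted p = 0.0135). For that comparison, median centring called *Map3k7* and *Irak1* with negative differences, -0.62 and -0.65. *Traf6*, next by mean, was lower in GFP- Pdgfrα+ cells than in the GFP- Pdgfrα- population (-0.76 (SE 0.18, adjusted p = 0.00284)). For GFP+ Pdgfrα+ against GFP+ Pdgfrα- cells it was -0.52 (SE 0.18, adjusted p = 0.0542), not called. That difference was called in 5 of 17 alternatives, among them the replicate number as a block (adjusted p = 0.0462) and quantile normalization (adjusted p = 0.021). *Tnfaip3* and *Nfkbia*, targets and inhibitors of NF-κB, were chosen after their values were seen. *Tnfaip3* was 12.8 and 18.0 in GFP+ Pdgfrα+, 20.04 and 16.2 in GFP- Pdgfrα+, 23.7 and 27.9 in GFP+ Pdgfrα- and 166 and 123 in GFP- Pdgfrα- cells. *Nfkbia* was 10.4 and 13.1 in GFP+ Pdgfrα+, 9.45 and 7.28 in GFP- Pdgfrα+, 18.3 and 25.1 in GFP+ Pdgfrα- and 57.6 and 53.6 in GFP- Pdgfrα- cells. Both were highest in GFP- Pdgfrα- cells, where the erythroid, myeloid and granulocyte sums and *Kit* were also highest, and the part of those cells was not tested. They were called, with differences for GFP+ Pdgfrα- cells of -2.43 (SE 0.24, adjusted p = 3.24e-06) and -1.33 (SE 0.26, adjusted p = 0.000941), and for GFP- Pdgfrα+ cells of -2.92 (SE 0.24, adjusted p = 4.51e-07) and -2.60 (SE 0.26, adjusted p = 3.14e-06). They were also the 2 genes called lower in GFP+ Pdgfrα+ cells than in the GFP+ Pdgfrα- population. For *Tnfaip3* this difference, -0.72 (SE 0.24, adjusted p = 0.0439), was lost without GFP+ Pdgfrα+ replicate 1 (-0.49, adjusted p = 0.228), GFP- Pdgfrα+ replicate 1 (-0.72, adjusted p = 0.0592), GFP- Pdgfrα+ replicate 2 (-0.72, adjusted p = 0.0582), GFP+ Pdgfrα- replicate 1 (-0.84, adjusted p = 0.103) and GFP+ Pdgfrα- replicate 2 (-0.61, adjusted p = 0.218), and with voom, a pseudocount of 0.1, a fit with no trend and a fit of the compared populations alone. The adjusted p of 17 alternatives was 0.0314 to 0.228. That of *Nfkbia*, -0.83 (SE 0.26, adjusted p = 0.0374), was lost without GFP+ Pdgfrα+ replicate 1 (-0.67, adjusted p = 0.158), GFP+ Pdgfrα+ replicate 2 (-0.98, adjusted p = 0.0559), GFP+ Pdgfrα- replicate 1 (-1.04, adjusted p = 0.0569), GFP+ Pdgfrα- replicate 2 (-0.61, adjusted p = 0.236) and GFP- Pdgfrα- replicate 1 (-0.83, adjusted p = 0.0502), and with voom, a fit with no trend and a fit of the compared populations alone. With 17 alternatives the adjusted p was 0.0257 to 0.236. Between the Pdgfrα+ populations limma called none of the 22, with 2 at an unadjusted p under 0.05, while voom called 0 and edgeR 0.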

How the data were processed

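RNA-seq of 8 libraries, 2 from each of 4 sorted populations, was analysed. The authors amplified the RNA, trimmed adaptors with cutadapt, estimated reads with RSEM 1.17 on the transcriptome of NCBIM37 (Ensembl 65), kept genes over 2 counts per 1e6 reads in at least 2 samples and normalized with voom. The deposited table holds a linear signal, a value per gene and library, for 15880 genes. Of these 14333 passed the stated filter here, so the table is not limited to genes that pass it. Its values are (reads + 0.5) per 1e6 of an effective library size, and whole reads were recovered from 100% of them within 0.01 reads.

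The limma 3.58.1 functions lmFit and eBayes, the latter with a trend, were run in R 4.3.3 on log2(value + 1). The fit had 1 mean per population, 4 residual degrees of freedom and Benjamini-Hochberg adjustment over 15880 genes, none filtered out. The tests were 4 pairwise comparisons, an F test over the populations and the interaction of GFP with Pdgfrα. Depth was 3221217 to 5302762 reads (median 3604130.5), and the common biological coefficient of variation was 0.188. On the whole reads, edgeR 4.0.16 called 893 genes for GFP+ Pdgfrα+ against GFP- Pdgfrα+ cells, 3586 for GFP+ Pdgfrα+ against GFP+ Pdgfrα- cells, 8415 for GFP+ Pdgfrα- against GFP- Pdgfrα- cells and 9281 for GFP- Pdgfrα+ against GFP- Pdgfrα- cells. Tables and figures used Python 3.11.15 (pandas 2.3.3, matplotlib 3.10.9, numpy 2.4.6 and scipy 1.17.1), and the fits were tested on simulated data.

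*Xist* was 119-fold to 299-fold higher in replicate 2 than in replicate 1 of every population, so the replicate number was taken as a possible pool of pups. Deviations from the population means of libraries with the same number were correlated at 0.0043 to 0.0812 across 15880 genes, which are not independent replicates, and the number was used as a block in an alternative.

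Values are given per library for called members with a population mean of at least 10 and as means for called members with one of at least 3. Of each other list (related genes, JAK and STAT genes, feedback inhibitors, interleukin-1 adaptors and NF-κB genes, markers of other cells) up to 4 genes with the highest mean are named. Members and lists were chosen with earlier results of these data known. The alternatives tried were the replicate block, voom, edgeR, a pseudocount of 0.1, the stated filter, median centring, quantile normalization, no trend, a fit of the compared populations alone and each library left out. Each replicate number was also left out, which gave values without a test.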

Additional observations from a re-analysis of the deposited data

Results flagged for a closer look

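For 20 members named in the report, the log2 difference between GFP+ and GFP- cells was not the same within Pdgfrα+ and within Pdgfrα- cells, by the limma interaction term. This term was called for 22 of 54 members and for 44.3% of all genes, so the share among members is near the background. Each value is the difference within Pdgfrα+ cells minus that within Pdgfrα- cells, with both in this order after it. All 4 populations enter every value, so the 20 results share their libraries.

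Negative values of receptors for gp130 cytokines were *Il6st* -3.47 (SE 0.36, adjusted p = 1.07e-05, from 0.10 and 3.58), *Il11ra1* -3.44 (SE 0.52, adjusted p = 0.000205, from -0.67 and 2.77), *Il6ra* -2.65 (SE 0.58, adjusted p = 0.00295, from -0.51 and 2.15), *Lifr* -2.52 (SE 0.25, adjusted p = 8.12e-06, from 1.64 and 4.16) and *Osmr* -1.64 (SE 0.30, adjusted p = 0.000912, from 0.01 and 1.66). Other receptors with a negative value were *Il17rd* -3.85 (SE 0.28, adjusted p = 6.61e-07, from -0.56 and 3.29), *Cxcr7* -3.49 (SE 0.51, adjusted p = 0.000169, from -1.07 and 2.42), *Il13ra1* -3.26 (SE 0.49, adjusted p = 0.0002, from -0.57 and 2.69), *Il1r1* -2.59 (SE 0.33, adjusted p = 5.15e-05, from -0.39 and 2.21), *Il17rc* -2.39 (SE 0.56, adjusted p = 0.00438, from 0.05 and 2.44), *Il4ra* -2.27 (SE 0.49, adjusted p = 0.00257, from -0.04 and 2.23) and *Il1rap* -1.33 (SE 0.43, adjusted p = 0.0244, from 0.99 and 2.32). The ligands were *Cxcl1* -3.33 (SE 0.77, adjusted p = 0.00415, from 0.09 and 3.42), *Il16* -2.47 (SE 0.51, adjusted p = 0.00202, from -1.40 and 1.07), *Ccl2* -2.17 (SE 0.58, adjusted p = 0.00956, from -0.42 and 1.75) and *Il34* -2.10 (SE 0.60, adjusted p = 0.0132, from 0.15 and 2.25). In these 16 genes the difference within Pdgfrα- cells was positive.

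Positive values were *Il17ra* 1.14 (SE 0.39, adjusted p = 0.0316, from -0.00091 and -1.14), *Il2rg* 2.30 (SE 0.60, adjusted p = 0.00803, from 1.31 and -0.99), *Il1rn* 3.48 (SE 0.52, adjusted p = 0.0002, from 2.39 and -1.09) and *Il1rl1* 5.79 (SE 0.61, adjusted p = 1.27e-05, from -0.05 and -5.84). *Il1rl1*, *Il17ra* and *Il2rg* had their highest mean in GFP- Pdgfrα- cells, where the erythroid, myeloid and granulocyte sums were also highest, and the part of those cells was not tested.

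The interaction of *Il17ra* lost its call without GFP+ Pdgfrα+ replicate 1 (0.93, adjusted p = 0.095), GFP- Pdgfrα+ replicate 1 (1.05, adjusted p = 0.0875), GFP- Pdgfrα+ replicate 2 (1.23, adjusted p = 0.0542), GFP+ Pdgfrα- replicate 1 (0.92, adjusted p = 0.118) and GFP- Pdgfrα- replicate 2 (1.02, adjusted p = 0.101). Adjusted p ranged from 0.00481 to 0.118 over 16 alternatives. That of *Il1rap* lost it without GFP+ Pdgfrα+ replicate 1 (-1.28, adjusted p = 0.0636), GFP- Pdgfrα+ replicate 1 (-1.20, adjusted p = 0.081), GFP+ Pdgfrα- replicate 2 (-1.096, adjusted p = 0.116) and GFP- Pdgfrα- replicate 2 (-1.05, adjusted p = 0.0739), and with median centring and quantile normalization. Its 16 alternatives gave an adjusted p of 0.0126 to 0.116. For *Il34* the same held without GFP- Pdgfrα+ replicate 2 (-1.78, adjusted p = 0.0555) and GFP- Pdgfrα- replicate 2 (-1.92, adjusted p = 0.0506), and with quantile normalization. Among 16 alternatives adjusted p went from 0.00721 to 0.0555.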

How the results depend on the processing

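With the replicate number as a block, the adjusted p of *Il16* for GFP+ Pdgfrα+ against GFP- Pdgfrα+ cells moved from 0.0471 to 0.0532 and that of *Il1rn* for GFP- Pdgfrα+ against GFP- Pdgfrα- cells from 0.0483 to 0.06. *Cxcl1* for GFP+ Pdgfrα+ against GFP+ Pdgfrα- cells moved from 0.051 to 0.0414. *Ccl11* moved from 0.07 to 0.0488 between the Pdgfrα+ and from 0.0684 to 0.0493 between the GFP+ populations, and the interaction of *Il31ra* from 0.0505 to 0.0372. The block changed no other call among the members named with values, and 3, 16, 26 and 32 members were then called in the 4 comparisons, in the order of the report. Of all genes, the block called 924, 3925, 8581 and 9541 in the same order.

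Of 128 called differences of named genes, 95 kept their call under every alternative with a test, 33 lost it under at least 1, and none changed direction. Without a replicate number, values only, 70 stayed within the spread between replicates and 58 moved. Members called for GFP+ Pdgfrα+ against GFP- Pdgfrα+ cells numbered 5 with voom (2 higher, 3 lower) against 3, and the cause was not tested. Over all genes, voom called 1057 in this comparison (521 higher, 536 lower) against 849. Without 1 library the number of members called moved in all 4 comparisons, by the F test and for the interaction. In these fits a lone library was assumed to vary like the other groups.

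Of all genes, 849 were called for GFP+ Pdgfrα+ against GFP- Pdgfrα+ cells. This fell to 532 with no trend and to 350.0, 517, 306 and 246 without GFP+ Pdgfrα+ replicates 1 and 2 and GFP- Pdgfrα+ replicates 1 and 2. For GFP+ Pdgfrα+ against GFP+ Pdgfrα- cells, 3848 became 2158 and 2411 without GFP+ Pdgfrα- replicates 1 and 2.

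The percent of called members that were higher in the first population moved with scaling: from 78.6 to 64.7 for GFP+ Pdgfrα+ against GFP+ Pdgfrα- cells with quantile normalization, and, with median centring and quantile normalization, from 80.8 to 65.4 and 66.7 for GFP+ Pdgfrα- and from 75.0 to 60 (18 of 30) and 59.4 for GFP- Pdgfrα+ against GFP- Pdgfrα- cells. For all genes with median centring it moved from 56.1 to 38.9 and from 55.1 to 40.6 in the latter comparisons, and from 43.1 to 59.7 for the interaction. Differences of genes near the floor grew by over 1.5 times with voom, edgeR or a pseudocount of 0.1. At this depth a population at 0 reads cannot be told from one at up to 3 reads per library.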
